A study of Mus musculus with 2 samples.

Results

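Of 10 genes of the prostaglandin and leukotriene pathway, chosen by name, 9 could be read on arrays of inflammatory monocytes from the inflamed mouse colon, among 22180 genes in all. The gene with the largest difference was Cysltr1, the receptor for cysteinyl leukotrienes, at a log2 level of 4.63 in wild type (WT) and 6.18 in Nlrp6-/-, which is 2.92-fold higher. Lta4h, the hydrolase that makes leukotriene B4, was 1.57-fold higher in Nlrp6-/-. Its log2 difference of 0.66 lay inside the range of -0.54 to 0.71 that held most differences of genes of like level. The Cysltr1 difference lay outside its own such range. The genes for inducible prostaglandin E2 synthesis, Ptgs2 and Ptges, were measured well above background in both genotypes and differed by 1.10-fold and 1.04-fold. Pla2g4a, which frees arachidonate for the whole pathway, was 1.40-fold lower. Each value comes from 1 array per genotype, so none has a replicate error, no test was run, and the differences describe these 2 arrays.

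Eicosanoids are signalling lipids made on demand from arachidonic acid. A phospholipase A2 releases the acid from membranes. The cyclooxygenases and terminal synthases then turn it into prostaglandins and thromboxane, while 5-lipoxygenase with its helper protein FLAP starts the leukotrienes. Leukotriene B4 attracts neutrophils and other leukocytes, and the cysteinyl leukotrienes cause smooth muscle contraction and vascular leakage. In the colon, prostaglandin E2 supports epithelial repair after injury and is also known for its part in tumour growth. Monocytes and macrophages are a major source of both branches.

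The cells were Ly6C-high monocytes, sorted by flow cytometry from the colonic lamina propria as CD11b-positive and negative for CD3 and Ly6G. WT mice and Nlrp6-/- mice, which lack an inflammasome receptor of the NOD-like family, were both labelled C57BL/6. All mice in both groups had received 10 mg/kg azoxymethane (AOM) by intraperitoneal injection and, from day 5, 2% dextran sodium sulfate (DSS) for 5 days, and cells were taken on day 10. There was no group without this treatment. Neither the age and number of mice behind each RNA nor whether the Nlrp6-/- mice were littermates of the WT mice is given in the sources used here.

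Levels are robust multiarray average (RMA) values on the log2 scale, ranging from 1.14 to 12.01 in WT and from 1.14 to 12.34 in Nlrp6-/-. Differences are Nlrp6-/- minus WT throughout. A level counted as above background at or over 3.26 in WT and 3.23 in Nlrp6-/-, the 95th percentile of 1400 probe sets for odorant and vomeronasal receptors. By this floor 9525 genes were measurable on at least 1 array. Nlrp6 itself was below it on both, at 2.32 and 2.67, so its probe set did not check the genotype labels. Of the monocyte markers all 11 with a probe set were above the floor on both arrays, with a median difference of 0.07. Among them Ly6c2 read 9.06 (WT) and 9.36 (Nlrp6-/-), with Csf1r at 9.40 and 9.28. The Fc receptor gene Fcgr1 was at 7.05 and 7.93 and F13a1, a coagulation factor subunit, at 5.38 and 6.44. RNA came from a bulk sort, in which fewer cells of a type and less RNA per cell cannot be told apart.

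Of the 9 genes with a probe set, 8 were above the floor on both arrays and Ltc4s was below it on both. The remaining gene, Ptgs1, which encodes the constitutive cyclooxygenase, has no probe set of its own in the annotation used and was not analysed here. At least 1.5-fold, 2 of the 8 were higher in Nlrp6-/- (Cysltr1 and Lta4h) and 0 lower, where 6.22% of all measurable genes were higher and 3.06% lower by that much. At 2-fold 1 was higher (Cysltr1) and 0 lower, against 1.62% and 0.325% of all measurable genes. The 8 differences were split 4 above and 4 below 0. Their median was -0.02, beside 0.01 over all measurable genes.

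**Figure D1:**
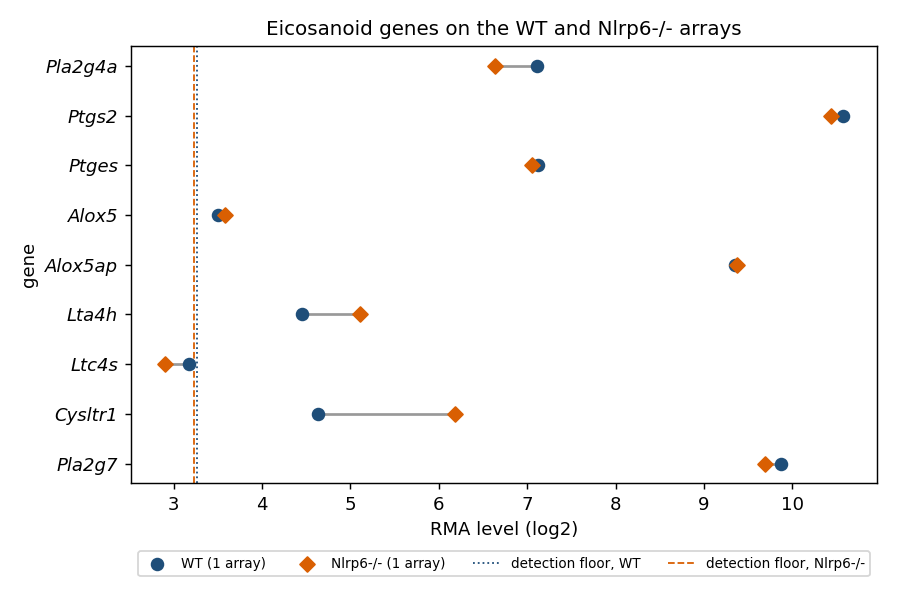
RMA level (log2, horizontal axis) of each readable gene on the WT array (circles) and the Nlrp6-/- array (diamonds), joined by a grey line, with the detection floor of each array as a vertical line. Cysltr1 and Lta4h have the longest lines towards higher Nlrp6-/- levels, Pla2g4a lies 0.48 lower in Nlrp6-/-, and both Ltc4s points lie under their floors. Levels of different probe sets are not comparable with each other.

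Arachidonate release came first in the pathway. Pla2g4a encodes the cytosolic phospholipase A2 that acts on arachidonate-bearing phospholipids when calcium rises. Its level was 7.11 in WT and 6.63 in Nlrp6-/-, which differ by -0.48. This was short of 1.5-fold. Among the 1190 genes above both floors whose mean level lay within 0.5 of it, the central 90% of differences ran from -0.56 to 0.73, so Pla2g4a was inside the range found at that brightness.

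The transcripts of the inducible prostaglandin E2 enzymes, Ptgs2 and Ptges, differed little. Ptgs2 encodes cyclooxygenase 2, the form induced by inflammatory stimuli, and its level was 10.58 in WT and 10.43 in Nlrp6-/-. The difference of -0.14 was inside the local range of -0.36 to 0.28 over 97 genes. Ptges, the microsomal prostaglandin E synthase that is induced together with cyclooxygenase 2, was at 7.12 in WT and 7.06 in Nlrp6-/-. Its difference of -0.06 was smaller than 0.19, the SD of differences among the odorant and vomeronasal receptor probe sets. That SD describes signal at background on these arrays and is not a replicate error.

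At the first steps of the leukotriene branch, Alox5ap differed little, while Alox5 was read too near the floor to say so. Alox5, which encodes 5-lipoxygenase, was just over the floor at 3.50 in WT and 3.58 in Nlrp6-/-. Its second probe set was below the floor at 2.50 and 2.51. Alox5ap encodes FLAP, the membrane protein that presents arachidonate to 5-lipoxygenase. It had 2 probe sets, with levels of 9.35 in WT and 9.37 in Nlrp6-/- for the brighter and 9.06 and 9.11 for the other. Their differences of 0.03 and 0.05 lay close together, while in 422 genes whose probe sets could be compared this way they disagreed by a median of 0.31.

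The branches that follow leukotriene A4 were measured by Lta4h and Ltc4s. Lta4h converts it to leukotriene B4, and its level was 4.45 in WT and 5.11 in Nlrp6-/-. The difference of 0.66 passed 1.5-fold, but it was inside the range of -0.54 to 0.71 that held the central 90% of 1828 genes of like level. It rests on 1 probe set at a modest level. Under a higher floor, the 99th percentile of those receptors, WT was below background and the bound was 1.02-fold. Ltc4s couples leukotriene A4 to glutathione and so opens the cysteinyl leukotriene branch. At 3.17 in WT and 2.90 in Nlrp6-/- it was not above background on either array, so no direction is given.

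Of 8560 genes readable on both arrays, 28 had a higher difference than Cysltr1. The receptor it encodes binds leukotriene D4 and is the target of montelukast. The difference of 1.55 lay outside the local range of -0.53 to 0.76 over 1564 genes, and it was the only one of the 8 to do so. Between 4 ways of normalizing or summarizing the probe sets the difference ran from 1.53 to 1.57. Under the higher floor the WT level of 4.63 counted as below background and Cysltr1 was at least 2.14-fold higher. It is read by 1 probe set, so no second measure of the gene exists on the array.

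Pla2g7 encodes a secreted phospholipase that inactivates platelet-activating factor and is made by macrophages. Its level was 9.87 in WT and 9.69 in Nlrp6-/-, and the difference of -0.18 was inside the local range of -0.35 to 0.48.

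**Figure D2:**
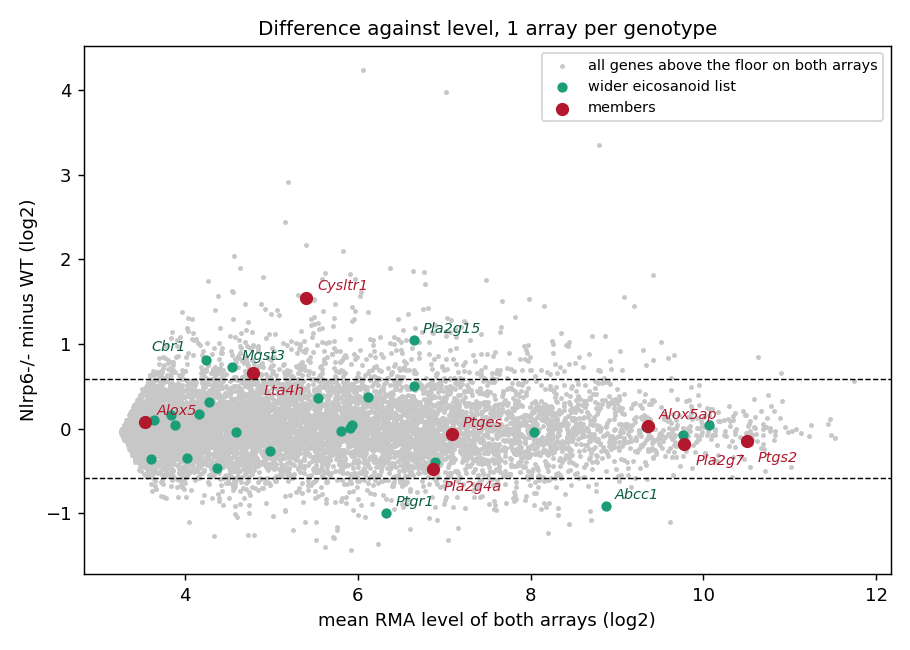
Difference (Nlrp6-/- minus WT, log2, vertical axis) against the mean level of both arrays (log2, horizontal axis) for genes above the floor on both arrays, with the 8 measured genes in red and the wider eicosanoid list in green. Dashed lines mark 1.5-fold. Cysltr1 at 1.55 lies above most grey points at its level, Lta4h sits near the upper line, and the other red points lie between the lines.

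RefSeq (build GRCm38.p6) gave promoter windows of 300 bases, from 250 before to 50 after a gene's start, for 8 of the 10 genes, with 9 windows in all. Cysltr1 and Alox5ap had no window, so no motif statement covers them. Windows are shown for Ptgs2, since its level was nearly equal in the pair, and for Lta4h and Pla2g4a, which had the largest differences among the genes with a window. They are written 5′ to 3′ along the gene's strand, with capitals where a searched motif matched.
Ptgs2 (chr1:150099781-150100080, + strand): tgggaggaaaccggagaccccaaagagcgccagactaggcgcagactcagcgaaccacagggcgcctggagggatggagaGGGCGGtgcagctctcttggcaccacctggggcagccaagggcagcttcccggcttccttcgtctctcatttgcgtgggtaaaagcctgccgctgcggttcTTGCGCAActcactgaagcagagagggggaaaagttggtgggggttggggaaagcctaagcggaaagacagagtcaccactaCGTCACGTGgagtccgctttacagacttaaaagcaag
Lta4h (chr10:93453146-93453445, + strand): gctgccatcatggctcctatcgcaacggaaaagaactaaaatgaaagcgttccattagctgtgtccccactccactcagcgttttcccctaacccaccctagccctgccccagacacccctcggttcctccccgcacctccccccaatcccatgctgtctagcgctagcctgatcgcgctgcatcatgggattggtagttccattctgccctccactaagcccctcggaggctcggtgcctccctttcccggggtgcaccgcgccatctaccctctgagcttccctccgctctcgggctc
Pla2g4a (chr1:149961241-149961540, - strand): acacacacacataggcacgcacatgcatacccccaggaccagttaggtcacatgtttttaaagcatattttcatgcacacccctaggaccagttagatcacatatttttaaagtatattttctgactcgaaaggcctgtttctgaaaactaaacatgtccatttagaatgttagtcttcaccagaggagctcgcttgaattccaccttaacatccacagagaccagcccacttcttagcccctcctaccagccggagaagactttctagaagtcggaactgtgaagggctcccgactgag
The capitals in the Ptgs2 window mark, in order, a GC box (GGGCGG), a C/EBP palindrome (TTGCGCAA), and a cyclic AMP response half-site (TGACG, here read on the other strand) that overlaps an E-box (CACGTG). Ptgs2 was the only 1 of the 8 genes with the C/EBP palindrome, which 0.183% of all 32851 promoter windows hold on either strand, and also the only 1 with the half-site (20.8% of windows) or the E-box (7.15%). None of the 9 windows held the interferon-stimulated response element as GAAA, any 2 bases and GAAA (3.44% of all windows) or the kappaB letters GGGA, any base and TTTCC (0.411%). The Pla2g7 window alone held the antioxidant response element as TGACNNNGC (12.4%). GC boxes (35.7%) were in the windows of 4 genes, Ptgs2, Ptges, Alox5 and Pla2g7. The Lta4h window and the upstream Pla2g4a window shown held no searched motif, the others being AP-1 (TGANTCA, 7.81% of windows), PU.1/ETS (GAGGAAGT, 3.20%), which matched for Ptgs1 alone, and the TATA box (TATAAA, 13.6%), which matched in the second Pla2g4a window alone. A match is a run of letters and not evidence of binding.

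The rest of the pathway was read through a list of 71 other genes, of which 64 had a probe set and 32 were measurable, as defined above. At 1.5-fold, 3 were higher in Nlrp6-/- (Pla2g15, Cbr1 and Mgst3) and 2 lower (Ptgr1 and Abcc1), beside the 6.22% and 3.06% of all measurable genes. The higher count was 2 when probe sets were averaged, which leaves out Pla2g15, and 5 with no floor. The median difference of the 32 was 0.04. The 3 higher and 2 lower genes were also the only ones of the 26 above both floors to lie outside the central 90% of differences at their level.

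Among phospholipases, the lysosomal enzyme gene Pla2g15 went from 6.12 in WT to 7.17 in Nlrp6-/-, higher by 1.05. Its other probe set was at 3.73 and 3.64, a difference of -0.09, so the probe sets disagreed, and their mean gave 0.48. Pla2g12a was below the floor at 2.91 in WT and above it at 3.51 in Nlrp6-/-, with a bound of 0.24. Pla2g6, the calcium-independent enzyme, was at 3.75 and 3.92, and Pla2g2e, a secreted form, at 3.86 and 3.90. The other secreted phospholipases in the list, Pla2g2a, Pla2g2d, Pla2g2f, Pla2g5 and Pla2g10, were below the floor on both arrays.

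The prostanoid synthases outside the 10 genes differed by less than 1.5-fold. Tbxas1, the thromboxane synthase, was at 3.59 in WT and 3.70 in Nlrp6-/-. Hpgds, the prostaglandin D synthase of mast cells and macrophages, was above the floor only in Nlrp6-/-, at 3.33, with a bound of 0.07. The prostacyclin synthase gene Ptgis was above it only in WT, at 3.38, with a bound of -0.15. Prxl2b, a prostaglandin F synthase, was at 4.11 and 4.43. Of the prostaglandin receptors, Ptger2 and Ptger4, the receptors that raise cyclic AMP in response to prostaglandin E2, were at 5.90 and 5.95 and at 5.12 and 4.85. The prostacyclin receptor gene Ptgir was at 3.78 in WT and 3.42 in Nlrp6-/-.

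Genes that clear or carry prostanoids differed more, and in opposite directions. Ptgr1, which encodes a reductase that inactivates leukotriene B4 and 15-keto prostaglandins, was at 6.83 in WT and 5.83 in Nlrp6-/-. That was 1.99-fold lower and lower than in all but 31 of the 8560 genes. Cbr1, a carbonyl reductase that acts on prostaglandin E2, was higher by 0.81, from 3.83 to 4.64, and its other probe set was higher by 0.57. Under the higher floor, the 99th percentile, Cbr1 was below background on both arrays. The prostaglandin transporter genes Slco2a1 and Abcc4 were lower by less than 1.5-fold, with differences of -0.46 and -0.40. Hpgd, which starts the breakdown of prostaglandins, was above the floor only in Nlrp6-/-, at 3.59.

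On the leukotriene side, Abcc1 encodes the transporter that exports leukotriene C4. Its level was 9.33 in WT and 8.41 in Nlrp6-/-, which is 1.89-fold lower. Dpep2 encodes a dipeptidase that turns leukotriene D4 into leukotriene E4, and its 2 probe sets were higher by 0.50 and 0.60. The brighter read 6.39 in WT and 6.89 in Nlrp6-/-, short of 1.5-fold. Mgst3, a microsomal glutathione transferase related to leukotriene C4 synthase, was at 4.18 and 4.91, a difference of 0.73. That was just over 0.70, the upper end of its local range. Under the higher floor Mgst3 was above background only in Nlrp6-/-, with a bound of 0. Mgst2 was at 4.08 and 4.25. The gene Cyp4f18, whose product degrades leukotriene B4, was at 5.35 and 5.71.

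Among the other receptors, Ltb4r1, the high-affinity receptor for leukotriene B4, read 4.20 (WT) and 3.85 (Nlrp6-/-), short of 1.5-fold. Cysltr2, the other cysteinyl leukotriene receptor, was below the floor at 2.65 in WT and above it at 3.45 in Nlrp6-/-. The readings differ by 0.79 and the bound against the floor is 0.18, so whether it reached 1.5-fold is not known. Fpr2, which also binds lipoxin A4, was at 10.05 and 10.09. For platelet-activating factor, the receptor gene Ptafr was at 9.80 and 9.72, and the synthetic enzyme gene Lpcat2 at 5.90 and 5.91. Lpcat1 was higher by 0.37, and Pafah1b1 and Pafah1b3, subunits of an intracellular hydrolase, differed by -0.04 each. All 6 other lipoxygenases and all 4 epoxy-fatty acid enzymes in the list were below the floor on both arrays, the 12/15-lipoxygenase gene Alox15 among them at 2.67 and 2.96.

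**Figure D3:**
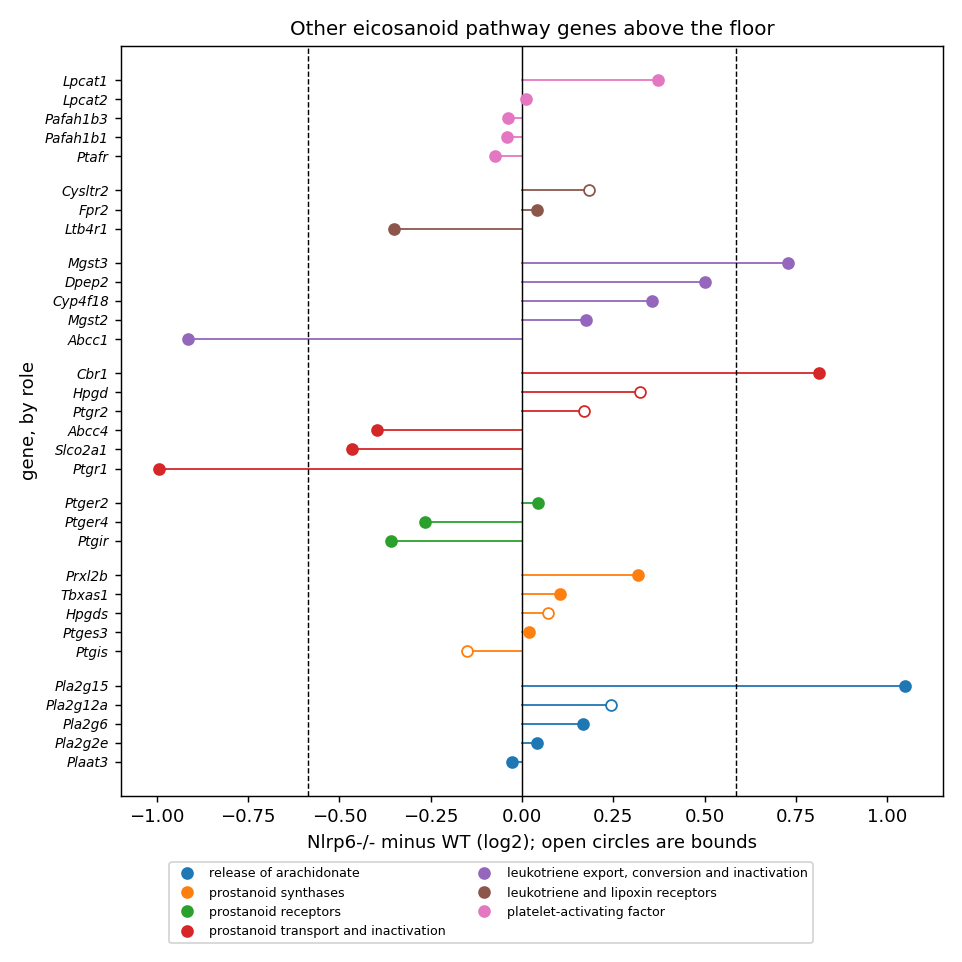
Difference (Nlrp6-/- minus WT, log2, horizontal axis) of the 32 other eicosanoid genes above the floor on at least 1 array, grouped and coloured by role. Open circles are bounds for genes below the floor on 1 array, and dashed lines mark 1.5-fold. Pla2g15, Cbr1 and Mgst3 pass the upper line, and Ptgr1 and Abcc1 the lower.

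Other cells that handle eicosanoids were followed by their markers. Eosinophils express Cysltr1. Of 7 eosinophil and basophil markers with a probe set, 5 were below the floor on both arrays, among them the defining genes Epx, at 2.29 in WT and 2.35 in Nlrp6-/-, and Siglecf, at 2.36 and 2.46. The remaining pair were higher in Nlrp6-/-: Prg2, an eosinophil granule protein gene, went from 4.15 to 5.62 and Ccr3 from 3.32 to 3.88. The list's summed linear level was 53.0 in WT and 89.4 in Nlrp6-/-. Such a sum adds probe sets of unequal response, those under the floor included, so the brightest genes weigh most, as Hdc does for mast cells and Dcn for fibroblasts below. The part of these cells in the Cysltr1 difference was not tested.

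Mast cells make leukotriene C4 and prostaglandin D2. Of their 12 markers 10 were below the floor on both arrays, including Cpa3, Tpsb2, Ms4a2 and Fcer1a. The exceptions were Kit, at 5.84 and 5.82, and Hdc, which other myeloid cells also express, at 8.36 and 8.60. The summed linear level was 440 in WT and 505 in Nlrp6-/-, and Mcpt2, below the floor on both, had the largest difference between its readings, 2.08 and 3.01. Tuft cells are an epithelial source of cysteinyl leukotrienes. Of their 8 markers only Gfi1b was above the floor, at 4.21 and 4.07, and the defining genes Dclk1, Pou2f3 and Trpm5 were below it on both arrays. Their summed linear level was 61.2 in WT and 59.5 in Nlrp6-/-.

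Platelets make thromboxane. In their list of 6 markers with a probe set, Pf4, which macrophages can express, went from 4.87 to 6.11, Ppbp went from 3.74 to below the floor at 2.90, and Itga2b, Gp5 and Gp9 were below it on both arrays. The summed linear level was 74.5 in WT and 106 in Nlrp6-/-. Neutrophils express Alox5 and Alox5ap, and 5 of their 10 markers were below the floor on both arrays, Mpo and Elane among them. Retnlg was at 3.23, below the floor, in WT and at 5.21 in Nlrp6-/-, while Csf3r, shared with monocytes, was at 8.25 and 8.20. Mmp8 read 7.09 (WT) and 6.92 (Nlrp6-/-). Ly6g, whose product the sorted cells were chosen to lack, still passed the floor on both arrays, with readings of 3.32 (WT) and 3.58 (Nlrp6-/-). Cxcr2 passed it only in Nlrp6-/-, reading 3.57. The neutrophil list summed to 499.7 in WT and 504 in Nlrp6-/-. Of 8 macrophage markers 6 were measurable and 0 reached 1.5-fold. Adgre1 was at 8.97 and 8.72, C1qb at 6.41 and 6.63, and Mertk was above the floor only in WT, at 3.30. Their summed linear level was 721 in WT and 656 in Nlrp6-/-.

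Most epithelial and plasma cell markers above the floor read higher on the Nlrp6-/- array, while stromal markers were mixed. Of 12 epithelial markers 10 were measurable and 7 at least 1.5-fold higher, where 6.22% of all measurable genes were. They were led by Muc13 at 1.79, Lgals4 at 1.57 and Cdh1 at 1.47. The epithelial summed linear level was 259 in WT and 525 in Nlrp6-/-. Of 10 fibroblast and muscle markers, all measurable, 3 were at least 1.5-fold higher: Col1a2 by 1.19, Lum by 1.18 and Dcn by 0.98. The other 7 differed by less, among them Col3a1 at 0.32, Col1a1 at 0.05 and Acta2 at -0.16, and the list's median was 0.04, with sums of 490 and 766. Of 7 B and plasma cell markers 6 were measurable and 3 at least 1.5-fold higher. These were Mzb1 at 1.62, Jchain at 0.88 and Cd79a at 0.74, and the list had sums of 981 and 1667. Of 6 endothelial markers 3 were measurable and 0 reached 1.5-fold, with the largest difference for Cdh5 at -0.39. Of 7 T cell and ILC markers 6 were measurable and 0 reached 1.5-fold, with the largest difference for Cd3d at 0.46. The endothelial sums were 142 and 158, and the T cell and ILC sums 461 and 464. The part of these cells in the differences of Cysltr1, Lta4h, Cbr1, Mgst3 and Pla2g15 was not tested.

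**Figure D4:**
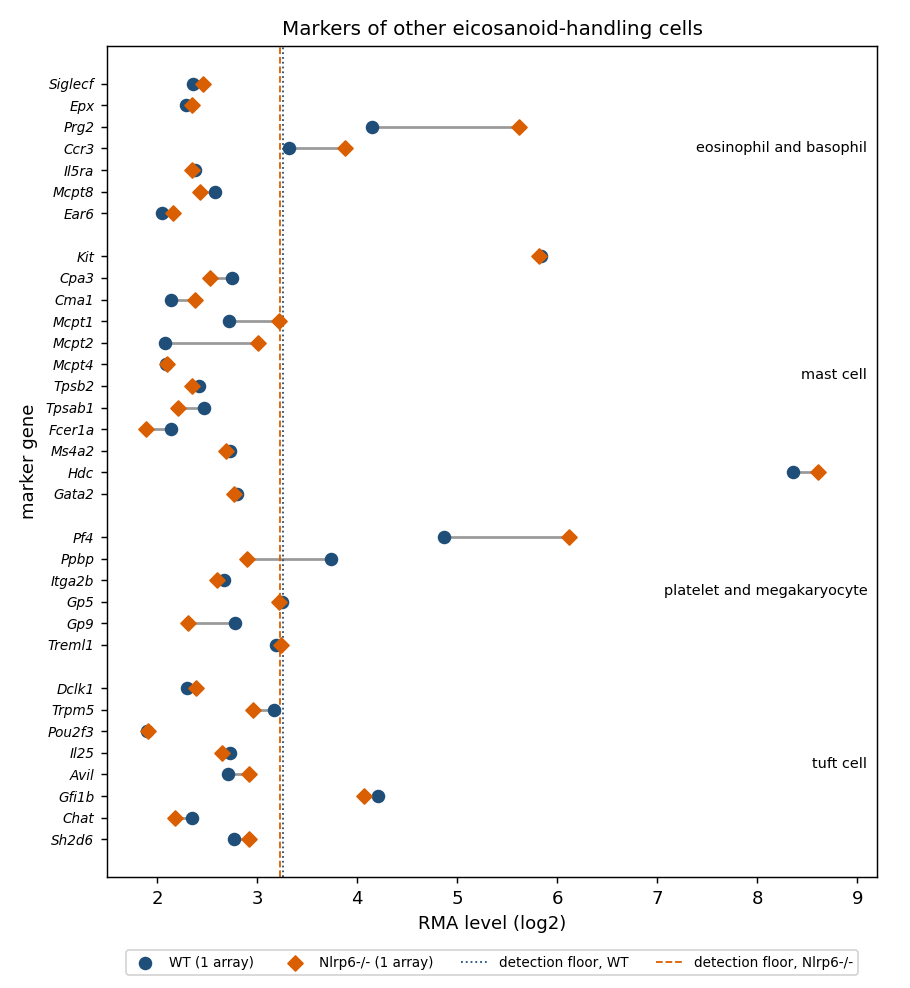
RMA level (log2, horizontal axis) of markers of eosinophils and basophils, mast cells, platelets and tuft cells on the WT array (circles) and the Nlrp6-/- array (diamonds), with the detection floor of each array as a vertical line. Most markers lie under the floors, and Prg2 and Pf4 have the longest lines above them.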

How the data were processed

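Gene expression was read on 2 Affymetrix Mouse Gene 2.1 ST strip arrays, 1 per genotype. Per the labels' protocols, 10 ng of RNA was amplified, 3.7 µg of cDNA was hybridised for 20 h at 48 °C, and the authors computed RMA levels with oligo in R 2.15.1, after scanning with Gene Atlas software 1.0.4.267. RMA makes the arrays' distributions equal, so a shift of all transcripts cannot be seen. The deposited values are log2 levels per probe set.

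Genes were named from the platform annotation: of 41345 probe sets 23521 had 1 symbol, 1814 several and 16010 none. A gene's probe set with the highest mean was used, and genes with only several-symbol probe sets were not analysed. Where only 1 array was above the floor, the difference was taken against the floor of the other and called a bound. Counts past a fold used bounds, while list medians used the differences between the readings themselves. By bounds the macrophage median was 0.004 where the readings gave -0.07. Named genes were all 10 pathway genes, in each role of the wider list up to 4 with the largest differences and any past 1.5-fold, up to 3 per marker list, and Nlrp6. Genes outside this rule, such as defining markers and genes below the floor, were named after their values were seen. The genes, lists and settings were chosen with earlier results of these data known. The number of arrays limits the precision. Scripts (Python 3.11.15, statsmodels 0.14.6) were tested on simulated data. Alternatives were 3 normalizations (loess span 0.3), the mean of probe sets, other floors and other fold thresholds.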

Additional observations from a re-analysis of the deposited data

How the results depend on the processing

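No difference of a pathway gene, and no difference of the 5 wider-list genes past 1.5-fold, changed sign under the normalizations or the mean of probe sets. The count of pathway genes at least 1.5-fold higher, 2, was 1 with the floor at the 99th percentile and 1 at 2-fold. The count lower, 0, was 1 at the lowest fold threshold tried. In the wider list the 3 higher genes became 1 with the 99th percentile floor, where 4945 genes were measurable instead of 9525, 5 with the 90th percentile floor, 5 with no floor, 1 at 2-fold and 7 at the lowest threshold, and the 2 lower genes became 0 at 2-fold and 6 at the lowest threshold. The median of the pathway genes measurable in each setting lay between -0.06 and 0.00 (7 alternatives). It was just above 0 after subtraction of the median difference or the loess curve. The median of the measurable wider-list genes lay between 0.02 and 0.06. The genes that entered these medians were not the same in every setting. With the mean of probe sets the Pla2g15 difference was 0.48. Medians of marker lists with few genes above the floor depended on it: the eosinophil and basophil list ran from 0.09 with no floor to 1.47 with the stricter floor. Some list medians changed sign with the floor: neutrophil, 0.26, was -0.05 with the stricter floor and -0.02 with none; macrophage, -0.07, was 0.10 with the stricter and 0.08 with the lower floor; mast cell, 0.12, and platelet, 0.05, were -0.03 and -0.05 with none; and tuft cell, -0.14, was 0.01 with the lower floor. No paired analysis was possible because each genotype has 1 array and the labels carry no replicate numbers.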

Other observations

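The labels do not give the sex of the mice, and Cysltr1 is X-linked. The X-inactivation transcript Xist read 9.93 on the WT array and 9.66 on the other, and the Y-linked genes Kdm5d, Eif2s3y and Uty were below the floor on both arrays, between 1.96 and 2.31 in WT and between 1.99 and 2.08 in Nlrp6-/-. These genes were chosen after the Cysltr1 values were seen.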
